A study of Homo sapiens with 9 samples.

Results

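The genes described here are 8 genes of the epithelial tight junction, CLDN1, CLDN3, CLDN4, CLDN7, OCLN, TJP1, TJP3 and F11R, together with EPCAM, which encodes an epithelial adhesion molecule. They were chosen by name, as every probe set that the array annotation assigns to 1 of these 9 symbols alone. Probe sets were matched for 8 of the 9 genes, 11 probe sets in all, out of 11963 named genes on the array. F11R, which encodes the junctional adhesion molecule JAM-A, had no matched probe set and was not analysed here. Of the 8 genes, 3 passed the filter on low values (CLDN1, EPCAM and TJP1) on all 9 arrays and were among the 4368 genes tested, and 5 lay below it (CLDN3, CLDN4, CLDN7, OCLN and TJP3).

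The cells were HK-2, an immortalised line derived from human proximal tubule epithelium, the part of the nephron that reabsorbs most of the filtered solute. There were 3 groups of 3 Affymetrix arrays: untreated cells at 0 h, cells exposed to transforming growth factor β1 (TGFβ1) for 24 h, and cells exposed to it for 48 h. All groups were kept in the same hormone-supplemented medium with EGF, hydrocortisone, triiodothyronine and insulin-transferrin-selenium. Each array held RNA pooled from parallel plates of 1 group in 1 of 3 runs of the experiment. The runs were done on separate days with consecutive passages, so the replicates are runs of a single cell line. Without the run in the fit, p-values measure the spread between runs. With the run as a replicate block, they measure how far the changes within runs differ from run to run. The design text calls the control group vehicle while the sample labels call it untreated, and neither gives a TGFβ1 dose. No untreated culture of 24 h or 48 h was analysed here, so exposure to TGFβ1 and time in culture cannot be told apart.

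Tight junctions seal the space between neighbouring epithelial cells at their apical border. Claudins form the strands of the seal and set which ions pass, occludin is a second membrane protein of the strands, and the zonula occludens proteins ZO-1 (TJP1) and ZO-3 (TJP3) tie the membrane proteins to the actin cytoskeleton. EPCAM lies along the lateral membrane of many epithelia and binds claudin-7, and loss of junction proteins is a usual feature of epithelial to mesenchymal transition, in which repressors of the SNAI and ZEB families bind E-boxes in epithelial promoters.

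Promoter windows are printed for CLDN1 and TJP1, the claudin that fell and the scaffold gene that did not, so that their upstream sequence can be read beside their values. They come from the RefSeq promoter table for GRCh38.p14, which matched 7 of the 9 genes (CLDN1, CLDN3, CLDN4, CLDN7, OCLN, TJP1 and TJP3). Each is the 250 bases before the outermost annotated start, 5′ to 3′ on the strand of the gene, and capitals mark an E-box, spelled CAGGTG or its reverse complement CACCTG.
CLDN1, chr3:190322447-190322696, minus strand: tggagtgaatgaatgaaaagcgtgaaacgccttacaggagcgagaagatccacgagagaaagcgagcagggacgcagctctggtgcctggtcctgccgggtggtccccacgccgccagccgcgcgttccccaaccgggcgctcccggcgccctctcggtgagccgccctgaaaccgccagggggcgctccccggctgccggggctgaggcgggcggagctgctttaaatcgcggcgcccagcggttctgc
TJP1, chr15:29969050-29969299, minus strand: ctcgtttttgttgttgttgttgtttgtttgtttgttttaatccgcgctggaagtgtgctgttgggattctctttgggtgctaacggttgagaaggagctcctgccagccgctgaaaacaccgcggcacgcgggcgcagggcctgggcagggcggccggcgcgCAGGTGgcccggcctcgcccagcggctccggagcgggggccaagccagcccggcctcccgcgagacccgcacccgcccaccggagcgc
The CLDN1 window held no E-box and was 68.8% G and C. The TJP1 window held 1, which began 88 bases before the start, and was 66.8% G and C. The windows of the other annotated TJP1 starts held none. The table held 13 windows for the 7 genes, since some have several annotated starts, and 5 of the 13 held at least 1 E-box, beside 17.5% of all 35116 windows of the same length (6143 windows).

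The other E-boxes lay in windows of genes whose probe sets were dim. They are printed as short stretches around the match.
OCLN, outermost start, chr5:69492507-69492526, plus strand: cgagtttCAGGTGaattggt
OCLN, second start, chr5:69492650-69492669, plus strand: gacgcagCAGGTGggactcg
CLDN7, internal start, chr17:7262640-7262659, minus strand: tcctcctCACCTGggcaagg
CLDN7, internal start, chr17:7262601-7262620, minus strand: tccggttCAGGTGagtgtcc
CLDN7, internal start, chr17:7262479-7262505, minus strand: atatactCAGGTGcgcccCACCTGtcc
TJP3, internal start, chr19:3721723-3721736, plus strand: agaggggCAGGTGc
The window before the internal CLDN7 start held 4 E-boxes, and 163 windows in the table, 0.464%, held at least 3. The windows of CLDN3 and CLDN4 and the outermost windows of CLDN7 and TJP3 held none. A match describes these letters only, and binding of a factor was not measured.

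The values are log2 signals of 1 probe set per gene, as the authors deposited them. The medians of the 9 arrays lay between 2.195 and 2.229, and a gene was tested where its log2 signal was at least 4 on at least 3 arrays. Signals of different probe sets depend on their probes, so levels are compared between groups for 1 gene and never between genes. In bulk RNA, fewer cells that express a gene and less RNA per cell cannot be told apart.

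Among the claudins, only CLDN1 had a signal past the filter, and it fell. Claudin-1 is a sealing claudin. Its log2 signal was 8.15, 8.48 and 8.41 in the untreated arrays of runs 1, 2 and 3, then 6.48, 6.87 and 6.61 at 24 h and 6.33, 6.60 and 6.28 at 48 h. All 6 TGFβ1 arrays lay below all 3 untreated arrays, while the 24 h and 48 h arrays overlapped. The mean went from 8.35 ± 0.17 (SD, n = 3) to 6.65 ± 0.20 at 24 h and 6.40 ± 0.17 at 48 h.

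At 24 h CLDN1 was 3.24-fold lower (95% interval 2.53 to 4.15), a log2 change of −1.70 with a standard error (SE) of 0.16 and a limma adjusted p of 0.000472. At 48 h it was 3.84-fold lower (95% interval 3 to 4.93, log2 change −1.94, adjusted p = 0.000239). Within runs the log2 change was −1.67, −1.62 and −1.80 at 24 h and −1.82, −1.89 and −2.12 at 48 h, so the decrease was present in 3 of 3 runs at both times. From 24 h to 48 h the signal was lower in 3 of 3 runs, by −0.15, −0.27 and −0.33 on the log2 scale. That difference did not pass the test (−0.25, 95% interval −0.604 to 0.111, limma adjusted p = 0.781).

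EPCAM fell as well. It had log2 signals of 8.22, 8.24 and 8.63 in the untreated arrays, 7.15, 7.07 and 7.07 at 24 h, and 7.09, 7.26 and 7.22 at 48 h. The groups did not overlap between untreated and TGFβ1 arrays, and the 24 h and 48 h arrays did. The means were 8.36 ± 0.23, 7.10 ± 0.05 and 7.19 ± 0.09 (SD, n = 3 each).

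EPCAM was 2.41-fold lower at 24 h (95% interval 1.92 to 3.01, log2 change −1.27, SE 0.14, limma adjusted p = 0.00116) and 2.26-fold lower at 48 h (1.8 to 2.82, log2 change −1.17, adjusted p = 0.00172). Within runs the log2 change was −1.07, −1.16 and −1.56 at 24 h and −1.13, −0.98 and −1.41 at 48 h. Run 3, with the highest untreated signal, had the greatest decrease at both times. Between 24 h and 48 h the change was 0.09 (95% interval −0.230 to 0.415, limma adjusted p = 0.881), and its sign differed between runs. EPCAM lost its call when run 1 was left out of all groups, with adjusted p-values of 0.0544 at 24 h and 0.081 at 48 h for log2 changes of −1.36 and −1.20.

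TJP1 had higher means at both times, with no call by the test at either. It encodes ZO-1, and its log2 signal was 7.60, 7.54 and 8.12 in untreated arrays, 8.40, 7.93 and 8.16 at 24 h, and 8.46, 8.37 and 8.47 at 48 h. The untreated and 24 h arrays overlapped, since the untreated array of run 3 stood above the 24 h array of run 2, and all 48 h arrays lay above all untreated ones. The means were 7.75 ± 0.32, 8.16 ± 0.23 and 8.43 ± 0.06 (SD, n = 3 each).

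The log2 change of TJP1 at 24 h was 0.41 (SE 0.18, 95% interval −0.003 to 0.827) and did not pass the test (limma adjusted p = 0.316). At 48 h it was 0.68, or 1.6-fold (95% interval 1.2 to 2.13), and did not pass either (limma adjusted p = 0.08). With the run number as a replicate block, which compares arrays of 1 run with each other, the 48 h value of TJP1 passed (log2 change 0.68, adjusted p = 0.0283) and the 24 h value did not (adjusted p = 0.127). Without the untreated array of run 3 the 48 h change was 0.86 (limma adjusted p = 0.0211). Within runs the log2 change was 0.80, 0.39 and 0.04 at 24 h and 0.86, 0.82 and 0.35 at 48 h, least in run 3 at both times. A second TJP1 probe set was dim, with means of 2.64 ± 0.11, 3.08 ± 0.19 and 3.16 ± 0.31, and its log2 changes of 0.45 and 0.52 had limma adjusted p-values of 0.376 and 0.298 when every probe set was tested. With the replicate block in that test, the limma adjusted p-values of the second set were 0.0857 and 0.0524. The second set was higher in 3 of 3 runs at both times.

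**Figure D1:**
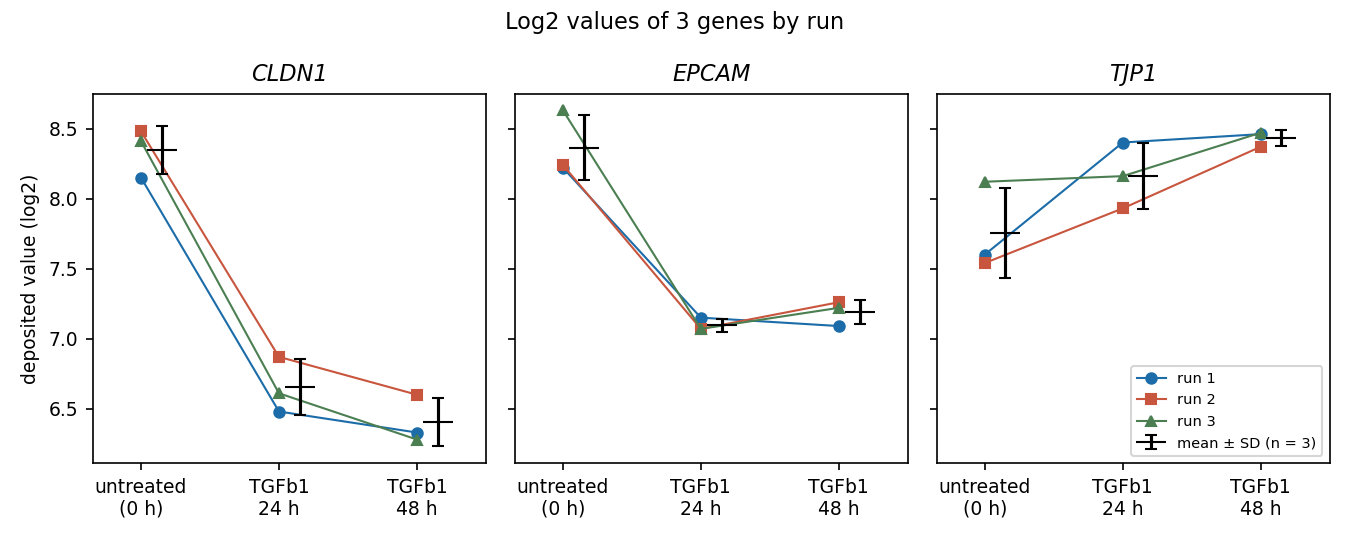
Log2 signal (vertical axis) of CLDN1, EPCAM and TJP1 at 0, 24 and 48 h (horizontal axis). Points are arrays, lines join the arrays of 1 run, and crosses with bars are group means ± SD (n = 3); CLDN1 and EPCAM are lower at 24 h and 48 h in every run, and TJP1 is higher in every run, by as little as 0.04 in run 3 at 24 h.

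Of the 3 members tested, 2 were lower at 24 h, CLDN1 and EPCAM, beside 2.17% of the 4368 genes tested (95 genes). At 48 h the same 2 were lower, again beside 2.17% of genes (95). No member differed between 48 h and 24 h by limma, where 0 of 4368 genes passed (0%), with 219 genes and none of the members at an unadjusted p under 0.05, and 709 genes and none of the members with the replicate block. With the block, 11.5% of genes passed in either direction at 24 h and 10.0% at 48 h, and 5.22% of genes were higher at 48 h, the direction of TJP1. Groups did not overlap for 2 of the 3 members at 24 h, beside 16.4% of genes, and for 3 of 3 at 48 h, beside 18.1%. With only 3 members tested, these shares describe the members and are no test of them. Their median log2 change was −1.27 at 24 h and −1.17 at 48 h, beside 0.02 and 0.02 over all genes tested.

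**Figure D2:**
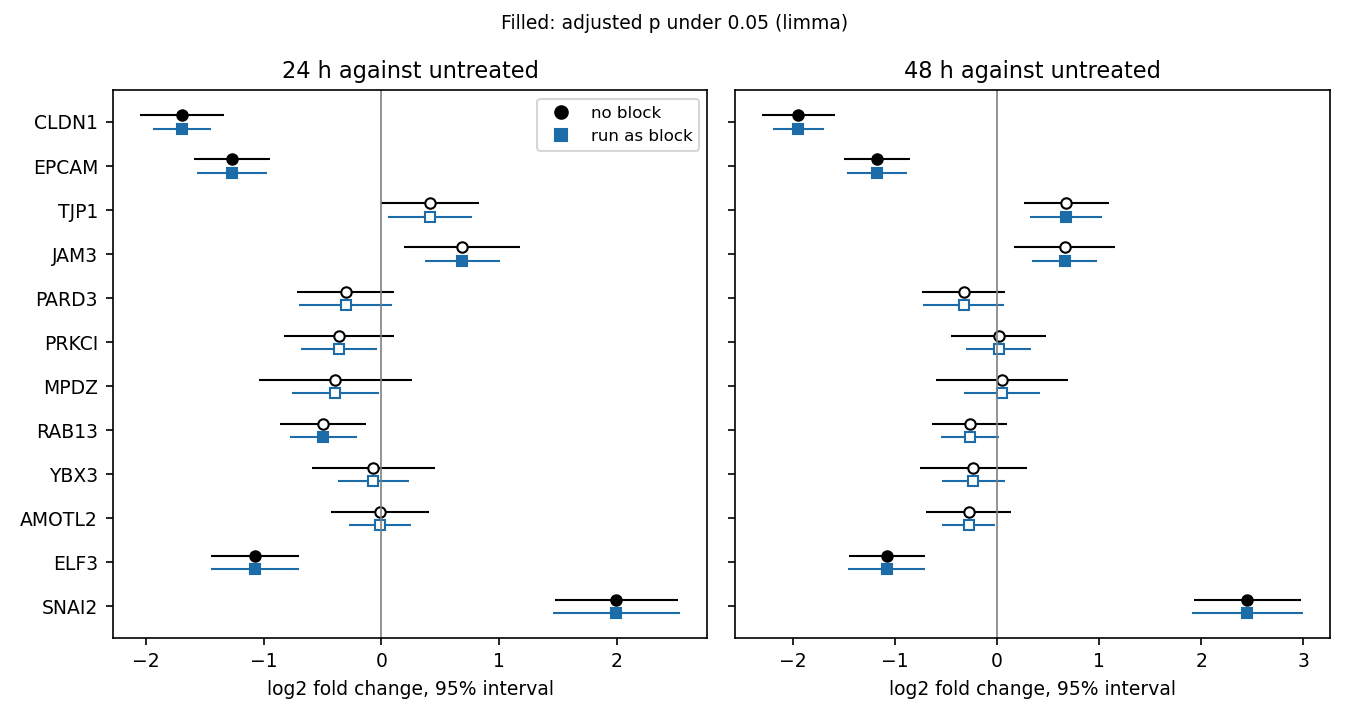
Log2 change against untreated cells at 24 h and 48 h (horizontal axis) with 95% intervals, for the members tested and for genes of the other lists. Circles are without and squares with the run as a block, filled where the limma adjusted p is under 0.05. The intervals of CLDN1, EPCAM and ELF3 lie wholly below 0 and those of SNAI2 and JAM3 wholly above it at both times. ELF3 passed the filter on low values through its untreated arrays alone, and SNAI2 and JAM3 through their TGFβ1 arrays. Of the transcription factors tested, only ELF3 and SNAI2, which were called, are shown.

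The changes of the 3 genes were set against each other within runs. The log2 change of CLDN1 minus that of EPCAM was −0.60, −0.46 and −0.23 in runs 1, 2 and 3 at 24 h (mean −0.43 ± 0.18 SD) and −0.69, −0.91 and −0.71 at 48 h (−0.77 ± 0.12), so that of CLDN1 was the lower in 3 of 3 runs at both times. The change of CLDN1 minus that of TJP1 was −2.11 ± 0.33 at 24 h and −2.62 ± 0.13 at 48 h, and that of TJP1 minus that of EPCAM was 1.68 ± 0.17 and 1.85 ± 0.12, each in the same direction in 3 of 3 runs. These differences between genes are a description and were not tested.

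The other 3 claudins listed were dim on all arrays. CLDN4, a claudin of the collecting duct and distal nephron, had log2 means of 2.55 ± 0.01 untreated, 2.68 ± 0.23 at 24 h and 2.58 ± 0.30 at 48 h (SD, n = 3). CLDN3 had means of 1.75, 1.64 and 1.60, and its second probe set 1.31, 1.14 and 1.28. CLDN7, the partner of EPCAM, had means of 1.25 ± 0.03, 1.35 ± 0.04 and 1.33 ± 0.00, and 5 of the 9 arrays held 1 identical value for it. Signals in this range cannot be told from background.

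Occludin and ZO-3 were also dim. OCLN had means of 1.71, 1.64 and 1.43, and TJP3 had means of 2.17, 1.87 and 1.74, with 1.90, 1.81 and 1.70 on its second probe set. Over the 9 arrays the 5 dim members spanned 1.22 (CLDN7) to 2.85 (CLDN4), and none reached the filter on any array. When all 11963 genes were tested without a filter, 0.869% were called higher and 0.886% lower at 24 h, and 0.811% and 0.961% at 48 h. None of the 5 dim members passed this test: at 48 h OCLN had a log2 change of −0.29 (unadjusted p = 0.0402, limma adjusted p = 0.484) and TJP3 one of −0.43 (unadjusted p = 0.02, limma adjusted p = 0.345). An effect of TGFβ1 on these 5 genes was not detectable at these signals.

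**Figure D3:**
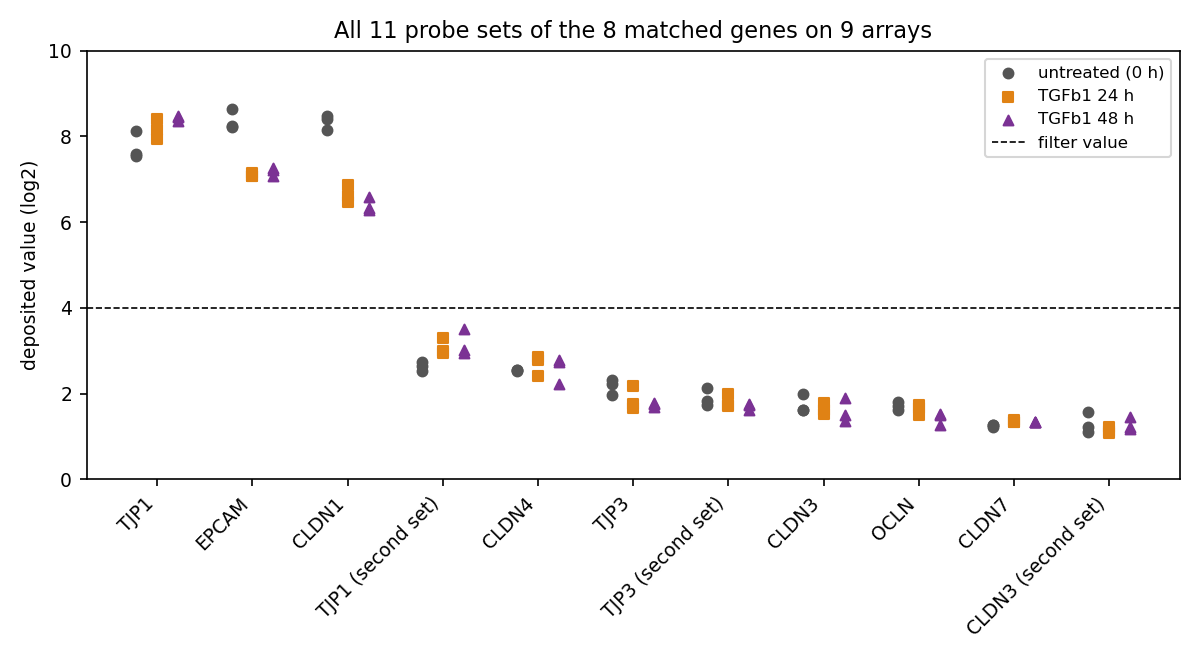
Log2 signal of each of the 11 member probe sets on the 9 arrays, by group. The line marks the filter at 4; the probe sets of CLDN3, CLDN4, CLDN7, OCLN and TJP3 and the second TJP1 set lie below it on every array.

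Other tight junction genes were taken from fixed lists. Of 17 other claudins, 11 had a probe set and none was tested, with signals from 0.67 (CLDN8) to 2.91 (CLDN15). Of 10 other membrane proteins of the junction, 4 had a probe set and 1 was tested, JAM3, which encodes the junctional adhesion molecule JAM-C. JAM3 had log2 signals of 3.89, 3.90 and 4.55 untreated, 4.47, 4.83 and 5.10 at 24 h and 4.74, 4.68 and 4.90 at 48 h. Its log2 change was 0.69 at 24 h and 0.66 at 48 h (limma adjusted p = 0.141 and 0.168). It passed with the replicate block (adjusted p = 0.0162 and 0.0204). Of its untreated arrays 1 alone reached 4, so JAM3 met the filter through its TGFβ1 arrays, which favours a rise of it. Tested without the filter and without the block, its limma adjusted p was 0.201 and 0.247.

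Of 22 scaffold and polarity proteins of the junction, 14 had a probe set and 6 were tested: MPDZ, PARD3, PRKCI, AMOTL2, YBX3 and RAB13. None passed by limma at either time, with median log2 changes of −0.33 and −0.25. RAB13, a small GTPase of junction traffic, had a log2 change of −0.50 at 24 h (limma adjusted p = 0.155, and 0.0383 with the replicate block). Of 10 genes of EPCAM relatives, proteases and partners, 8 had a probe set and 5 were tested (SPINT2, ADAM10, ADAM17, FHL2 and CD44). None passed with or without the block, and their median changes were −0.27 and −0.25. ADAM10 and ADAM17 cleave cell surface proteins, and FHL2 binds the intracellular part of EPCAM.

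Of 15 transcription factors known to act on junction genes, 12 had a probe set. Tested without the filter on low values, 1 of the 12 rose and 1 fell at both times, beside the shares of all genes given above for that test. SNAI2, which encodes the repressor SLUG, had log2 signals of 4.05, 3.37 and 3.57 untreated, 5.30, 6.09 and 5.59 at 24 h and 5.98, 6.26 and 6.09 at 48 h. It rose by 2.00 at 24 h and 2.45 at 48 h (limma adjusted p without the filter 0.00171 and 0.000592), in 3 of 3 runs. ELF3, an epithelial factor of the ETS family, had signals of 4.36, 4.47 and 4.58, then 3.18, 3.58 and 3.42, then 3.66, 3.31 and 3.20. It fell by 1.07 and 1.08 on the log2 scale (limma adjusted p without the filter 0.007 and 0.00655), and both later groups lay below 4. With the filter, ELF3 was tested through its untreated arrays alone, where it is high, so the filter favours a fall of it. TWIST1 (−0.59 and −0.36), ZEB1 (−0.49 and −0.49) and TCF3 (0.22 and 0.15) did not pass. SNAI1 lay below the filter on low values. Tested without it, the SNAI1 changes of 0.91 and 0.71 did not pass (limma adjusted p = 0.201 and 0.433).

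The genes whose signals were most alike that of CLDN1 over the 9 arrays, by Pearson correlation and as a description only, were CD9 (0.9956), MAL (0.9751), PAX8 (0.9744), GDF15 (0.9734) and SCNN1A (0.9688). For EPCAM they were ACVR1B (0.9819), GSE1 (0.9811), RBM47 (0.9703), PPP2R5A (0.9688) and CDKN2AIP (0.9666). CLDN1 and EPCAM correlated at 0.9554 over the 9 arrays, and TJP1 correlated at −0.8169 with CLDN1 and −0.6351 with EPCAM. All arrays of a group share its condition, so a gene that changes in 1 direction correlates with others that do.

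The labelled cell type was set against markers. Of 14 kidney epithelial markers with a probe set, PAX8, KRT8, KRT18, KRT19 and CDH6 had a signal of at least 4 on every array, while those of differentiated proximal tubule, LRP2, CUBN, AQP1 and SLC34A1, and CDH1, did not. PAX8, a kidney transcription factor, fell by 0.60 at 24 h and 0.81 at 48 h on the log2 scale (limma adjusted p = 0.0233 and 0.00496). With the replicate block KRT8 was higher at 24 h (0.65, adjusted p = 0.0123) and CDH6 at 48 h (1.33, adjusted p = 0.00659). Of 6 fibroblast markers LUM alone reached 4 on every array, and the signals of the list summed to 102 to 132 untreated, 81.1 to 115 at 24 h and 126 to 145 at 48 h on the linear scale. COL1A1, which encodes a chain of type I collagen, was below 4 on every array, with log2 means of 1.73 ± 0.39 untreated, 3.08 ± 0.10 at 24 h and 2.84 ± 0.53 at 48 h. In the test without a filter COL1A1 rose by 1.35 at 24 h (limma adjusted p = 0.037) and its 48 h difference of 1.11 did not pass (adjusted p = 0.0848). The other 5 markers of the list did not pass at either time. None of 5 endothelial or 3 leukocyte markers reached 4 on every array, with sums of 15.2 to 17.5 and 8.41 to 11.2 over the 3 groups. The kidney list summed to 1800 to 2110 untreated, 1790 to 2200 at 24 h and 1720 to 1960 at 48 h. A sum follows the brightest probe sets of its list, here KRT18 and KRT19, so the sums are not compared between lists. The part of the marker genes in the changes above was not tested.

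Calls of the 3 genes were compared over 20 other ways to process the values, among them leaving out each array and each run. CLDN1 passed the test in all 20 at both times, with limma adjusted p-values from 6.61e-05 to 0.0407 at 24 h and from 2.54e-05 to 0.032 at 48 h. EPCAM passed in 19 at both times, with values up to 0.0544 and 0.081. TJP1 passed in 0 at 24 h and in 2 at 48 h, where its adjusted p ranged from 0.0211 to 0.554. Of the 20, the replicate block alone compares arrays within runs, and the fits with arrays or runs left out do not. Several of the 20 alter only the test and leave the log2 change as it was.

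**Figure D4:**
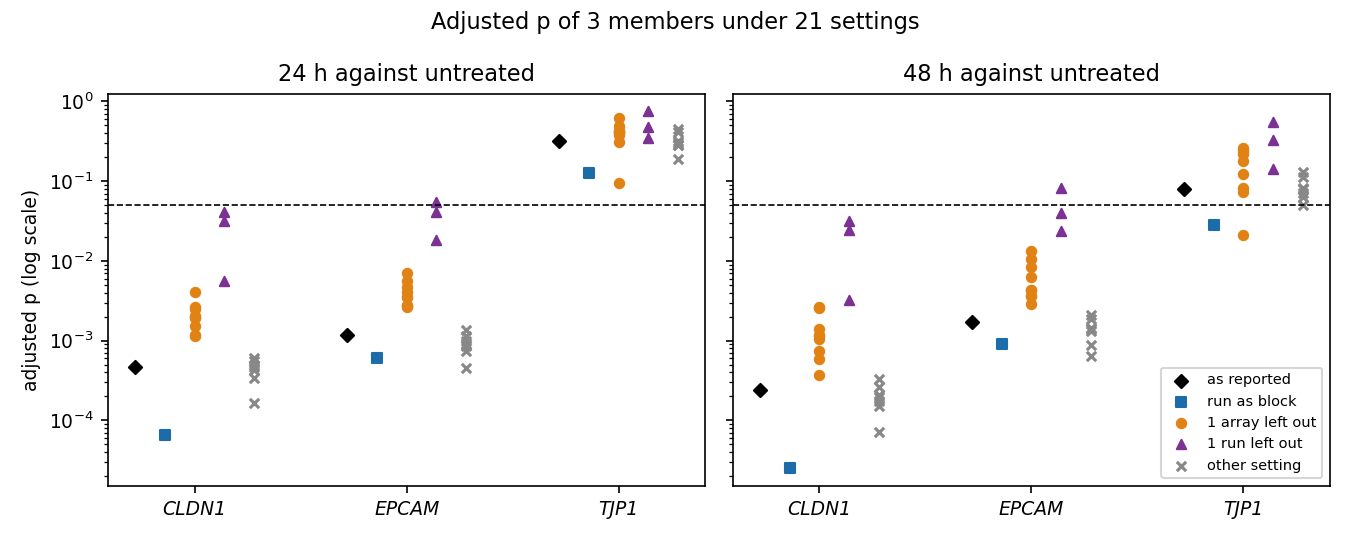
Limma adjusted p (vertical axis, log scale) of CLDN1, EPCAM and TJP1 at 24 h and 48 h, as reported and under each alternative; the dashed line marks 0.05. All points of CLDN1 lie below the line, 1 of EPCAM lies above it at each time, and those of TJP1 lie above it at 24 h and, but for 2 alternatives, at 48 h.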

How the data were processed

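The values are log2 signals of Affymetrix probe sets that the authors deposited after GCRMA, per the submitters' processing notes, which name no version. This method subtracts background estimated from probe sequence, makes arrays comparable and condenses the probes of a set to 1 value. Dim probe sets lie near the floor of these values, where arrays can share 1 identical value, as for CLDN7. Changes of dim genes are therefore poorly resolved. The log2 scale was read from the values. They were used without further normalization. Of 22277 probe sets, 19070 have 1 gene symbol in the platform annotation, 1043 several and 2164 none, and only the first were named (19058 matched a RefSeq gene table). Where a gene had several sets, that of highest mean was used, and genes with a log2 signal of at least 4 on at least 3 arrays were tested (4368 of 11963, 36.5%).

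All 9 arrays entered 1 limma fit (version 3.58.1, R 4.3.3, functions lmFit and eBayes), with Benjamini-Hochberg adjustment over the genes tested and a threshold of 0.05. The script was tested on simulated data. Arrays with 1 run number deviated together from their group means (9 pairs, correlations of 0.378 to 0.662, and −0.526 to 0.185 for different numbers), and the labels say that the runs were on separate days, so the number was also used as a replicate block. Its value is printed where it changes a call. All members were named whatever their values, with genes of the other lists that passed the test or, for claudins and membrane proteins, the filter, and the 5 genes most alike each member that passed. RAB13, KRT8 and CDH6, which passed with the block alone, COL1A1, which passed without the filter, and the other genes named for a list, were named after their values were seen. The members and lists were chosen with earlier results of these data known. The number of arrays limits the precision.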

Additional observations from a re-analysis of the deposited data

How the results depend on the processing

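The 20 alternatives were 12 that left out an array or a run and 8 others: the replicate block, no filter, a stricter filter, the mean of probe sets, every probe set tested, quantile normalization, centring on expressed probe sets, and a trended robust prior. CLDN1 passed the test at 24 h and 48 h in all 20 (adjusted p up to 0.0407 and 0.032). EPCAM passed in 19 of 20 at both times. TJP1 at 48 h passed in 2, the replicate block and the setting without the untreated array of run 3, and at 24 h in 0, with adjusted p from 0.0957 to 0.751. No change of these genes reversed. Several of the 20, such as the replicate block and the other filters, leave the log2 change as it was and alter only its test. The mean of probe sets could not move CLDN1 or EPCAM, which have 1 probe set each. Leaving out an array of a group outside the comparison does not move the log2 change either. With arrays or runs left out, the members called ranged from 1 to 2 at 24 h and from 1 to 3 at 48 h, the lowest without run 1. The replicate block called 2 members at 24 h and 3 at 48 h. Between 48 h and 24 h no member was called under any of the 20. Centring moved arrays by −0.054 to 0.049. Dim signals limit what can be said of the 5 members below the filter.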

Other observations

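CXADR, which encodes a tight junction adhesion protein and was singled out after its values were seen, lay below the filter because only 2 of the 9 arrays reached a log2 signal of 4. Its signals were 3.57, 4.53 and 4.59 in untreated arrays, 3.19, 2.75 and 3.22 at 24 h, and 3.31, 2.94 and 3.31 at 48 h, so all TGFβ1 arrays lay below all untreated ones. Among the 4368 genes past the filter, groups did not overlap in either direction for 16.4% at 24 h and 18.1% at 48 h. That share was not computed for genes below the filter, such as CXADR. Tested without a filter over 11963 genes, the log2 change of CXADR was −1.18 at 24 h (limma adjusted p = 0.0633) and −1.04 at 48 h (adjusted p = 0.105), and neither passed. LSR, a protein of junctions where 3 cells meet, had means of 2.99, 2.46 and 2.34, and JAM2 of 2.56, 3.14 and 2.91 at 0 h, 24 h and 48 h, all below the filter.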
